A study of Mus musculus with 50 samples.

Results

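Fatty acid oxidation and ketogenesis was followed through 37 genes, picked by symbol from the 24984 genes whose reads were counted in every RNA library, and all 37 were found. They were ordered into 8 steps: 3 genes that activate or bind fatty acids, 5 of the carnitine route, 4 mitochondrial acyl-CoA dehydrogenases, 3 of the electron transfer flavoprotein, 7 of mitochondrial hydration to thiolysis, 10 peroxisomal enzymes, 4 acyl-CoA thioesterases and 1 ketone body dehydrogenase. The study asked what aging changes in kidney and liver, using RNA-seq, which counts mRNA fragments per gene, and ATAC-seq, which maps open chromatin. All mice and cells were C57BL/6, with no other genotype named, and the methods give the mice of the age comparison as female. Young mice were 2.5 months old and aged mice 23 to 25 months old, both untreated. A further set of mice, 20 to 21 months old, gave kidneys and livers after DMSO, a solvent, or an agent labelled 3C. Skin fibroblasts labelled P9, with no donor age in the labels, were also treated with DMSO or 3C. The labels say neither what 3C is nor what P9 stands for.

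There were 38 RNA libraries in 10 groups of 4 (3 in each fibroblast group) and 12 ATAC libraries in 4 groups of 3, and the RNA libraries held 14238228 to 43704147 counts in genes. Nothing in the labels says that the libraries of a group came from different animals or cultures, so p-values measure the spread between these libraries, which may be technical. In the 16 liver libraries all 8 hepatocyte markers were detected, with a summed level of at least 81910 CPM (counts scaled to a fixed library total). The 6 proximal tubule markers summed to at least 11770 CPM in the kidney libraries, and the 7 fibroblast markers to at least 19910 CPM in the fibroblast libraries. Old kidney replicate 2 held 4081 CPM of hepatocyte markers, against 99.56 to 140.6 CPM in the other old kidneys. In both kidney and liver, 3C replicate 1 stood at another phase of the daily clock: Arntl, a core clock activator, was at 2.73 CPM in kidney and 1.27 CPM in liver, against 19.7 to 42.6 CPM and 22.4 to 35.6 CPM in the other 7 libraries. Young liver replicate 3 was the highest of its group for 26 of 36 members measured, and old liver replicate 3 the lowest for 27. Several counts and values that these libraries set are given with and without them, or as a range with each library left out in turn.

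Fatty acids are burned in 2 organelles. Mitochondria import long chains as carnitine esters through CPT1, the carnitine carrier and CPT2, then shorten them by cycles of dehydrogenation, hydration, a second dehydrogenation and thiolysis, with electrons passed to the respiratory chain by the electron transfer flavoprotein. Peroxisomes shorten very long and branched chains with their own oxidases and thiolases and hand the products on as carnitine esters through CROT. The liver turns surplus acetyl-CoA into ketone bodies, which kidney and other organs burn, while proximal tubule cells of the kidney depend on fatty acid oxidation for ATP. PPAR alpha, a lipid-sensing nuclear receptor that pairs with RXR on a direct repeat spaced by 1 base (DR1), activates many of these genes in both organs. The label ketogenesis holds for 1 member only, Bdh1, which interconverts acetoacetate and beta-hydroxybutyrate. Some related genes outside the 37 are given below from lists.

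The promoter sequences of 3 loci are shown because their mRNA or chromatin carried the results that follow. They are RefSeq sequence of the mouse build GRCm38.p6, written 5′ to 3′ along the gene and ending just before the transcription start, except for the last, which fills the gap between a pair of genes. Fabp1 encodes the liver fatty acid binding protein, lies at chr6:71199879-71205034 on the plus strand, and its 250 bases upstream (chr6:71199629-71199878) hold the 1 DR1 match found among members, in capitals. Crot encodes peroxisomal carnitine octanoyltransferase and lies at chr5:8966033-8997146 on the minus strand, and capitals mark GC boxes (GGGCGG) in its 250 bases upstream (chr5:8997147-8997396). Hadha and Hadhb encode the alpha and beta subunits of the mitochondrial trifunctional protein and start back to back on chromosome 5, and the 272 bases between their starts (chr5:30154981-30155252, plus strand) again have GC boxes in capitals.
Fabp1: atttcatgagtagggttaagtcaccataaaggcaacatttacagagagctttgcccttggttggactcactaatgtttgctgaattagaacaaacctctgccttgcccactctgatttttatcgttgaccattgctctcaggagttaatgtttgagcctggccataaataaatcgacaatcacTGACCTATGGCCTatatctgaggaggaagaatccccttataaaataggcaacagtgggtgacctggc
Crot: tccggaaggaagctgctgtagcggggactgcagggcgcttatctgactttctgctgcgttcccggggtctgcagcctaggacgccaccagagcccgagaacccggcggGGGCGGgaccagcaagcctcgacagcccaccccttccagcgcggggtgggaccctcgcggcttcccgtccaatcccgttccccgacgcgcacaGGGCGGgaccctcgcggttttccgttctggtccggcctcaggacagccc
Hadha and Hadhb: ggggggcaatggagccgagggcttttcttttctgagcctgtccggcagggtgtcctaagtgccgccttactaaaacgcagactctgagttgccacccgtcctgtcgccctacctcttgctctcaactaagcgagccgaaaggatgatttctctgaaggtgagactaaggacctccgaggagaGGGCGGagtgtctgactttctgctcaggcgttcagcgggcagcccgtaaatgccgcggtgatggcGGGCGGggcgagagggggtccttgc
The DR1 pattern was a pair of AGGNCA in the same direction with 1 base between them, searched on both strands in windows of 300 bases. It lies 67 to 55 bases before the Fabp1 start, on the reverse strand, and was in the window of 1 of the 32 members that had one, against 122 of 27025 genes (0.45%). With the stricter AGGTCA the count was 0 members and 13 genes (0.05%). The GC box, chosen after the data were seen, was on either strand in the 250 bases upstream of 19 of 32 members (59.4%) and of 35.4% of all genes. A match is a description of the letters and not of a factor bound there.

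Levels of different genes were compared per length, as RPKM (counts scaled to the length of exon and to the library's counts in genes), and summed over the members of a step. The 14 genes of the mitochondrial spiral (dehydrogenases, electron transfer flavoprotein, and hydration to thiolysis) summed to 3564 ± 520 RPKM in young kidney (SD, n = 4) and 2881 ± 266 RPKM in young liver, while the 10 peroxisomal enzymes summed to 1461 ± 181 and 2672 ± 407 RPKM. The 2 organs therefore differed in balance: the peroxisomal sum was 40.0 to 42.95% of the mitochondrial sum in young kidney and 87.61 to 100.7% in young liver, with no overlap. In the set aged 20 to 21 months the DMSO libraries gave 36.04 to 42.11% in kidney and 53.04 to 87.55% in liver. Skin fibroblasts held less of both: 686 ± 22.9 RPKM mitochondrial and 251 ± 2.19 RPKM peroxisomal in DMSO (n = 3), a ratio of 35.55 to 37.23%. These are mRNA levels in whole tissue, where fewer cells of a type and less RNA per cell cannot be told apart.

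**Figure D1:**
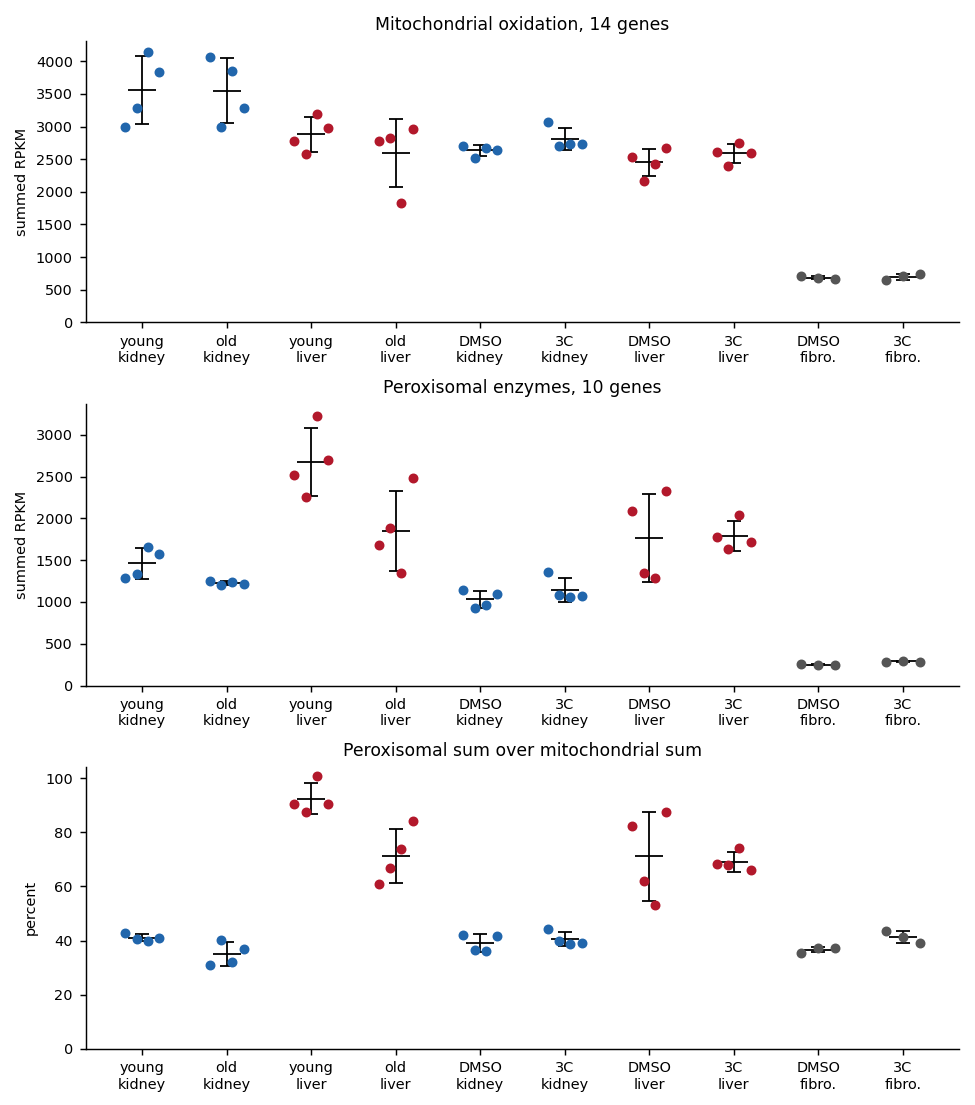
Summed RPKM of the 14 mitochondrial genes, summed RPKM of the 10 peroxisomal genes, and the peroxisomal sum as a percent of the mitochondrial sum, for the 10 RNA groups; points are libraries and bars are the mean ± SD. Young liver sits near parity (87.61 to 100.7%), and the old liver libraries lie below it (60.84 to 84.13%).

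The sums by mitochondrial step were compared on total counts, and their liver to kidney ratios move with the scaling, as the tests gene by gene show. The acyl-CoA dehydrogenases, which open each cycle, summed to 1360 ± 313 RPKM in young kidney and 589 ± 76.3 RPKM in young liver, a liver to kidney ratio of 0.43, and the ratio was 0.44 in old tissue and 0.59 in the DMSO groups. One gene made most of that gap: Acadm, the medium-chain dehydrogenase (chr3:153922353-153944643, minus strand), averaged 862 RPKM in young kidney and 173 RPKM in young liver. The later reactions, hydration to thiolysis, had a ratio of 1.17 in young, 1.02 in old and 1.29 in DMSO tissue, with overlapping libraries in young and old tissue. Among them was Acaa2, the mitochondrial 3-ketoacyl-CoA thiolase, at 272 RPKM in young kidney and 629 RPKM in young liver. Among peroxisomal genes, Scp2, which carries a thiolase domain, averaged 349 and 906 RPKM, and Crot 115 and 388 RPKM. Fabp1 alone made 48.0 ± 6.61% of the summed RPKM of all members in young liver and 0.16 ± 0.041% in young kidney. At the other end, Cpt1b, the muscle form of CPT1, averaged at most 0.40 RPKM in any group, and Fabp1 and Acox2 had no counts in the fibroblasts. A neighbouring gene model overlaps 94.82% of Cpt1b exon, so its level may be undercounted.

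Liver was then compared with kidney gene by gene. With TMM scaling, which sets the bulk of genes to no change, 29 of the 36 members tested were higher in young liver and 3 lower (30.2% of all genes tested were called higher and 35.1% lower), by edgeR's quasi-likelihood test at a Benjamini-Hochberg adjusted p under 0.05. The direction of 15 members turned with the scaling: relative to total counts, 12 were called higher and 8 lower (11.2% and 74.3% of all genes) and the median of all genes moved from −0.08 to −1.16 on the log2 scale. The 12 members higher under both scalings were Acsl5, Fabp1, Slc25a20, Etfdh, Acaa2, Hsd17b4, Acaa1b, Scp2, Crot, Decr2, Eci2 and Acot3, of which 6 are peroxisomal, and the 3 lower under both were Acadm, Acox3 and Acot2. Etfb, Hadh and Hadhb were called higher under TMM and lower under total counts.

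Acsl5, which links CoA to long-chain fatty acids (chr19:55251861-55296628, plus strand), had 86.0, 98.1, 87.4 and 92.7 CPM in the 4 young kidneys and 974.5, 786, 866 and 788 CPM in the 4 young livers. Every liver library lay far above every kidney library (log2 fold change 3.23 ± 0.14 SE, adjusted p = 1.754e-09 by edgeR). Fabp1 gave the widest gap, at 2.525, 2.02, 3.625 and 4.81 CPM in kidney and 2973, 2944, 6921 and 6021 CPM in liver (10.52 ± 0.49, adjusted p = 2.618e-09). Crot had 173.5, 222, 280.3 and 212 CPM in kidney and 1384, 1270, 2140 and 1576 CPM in liver (2.84 ± 0.22, adjusted p = 2.23e-07). In all 3 the lowest liver library was above the highest kidney library, and all 3 calls held under both scalings. Decr2, the peroxisomal 2,4-dienoyl-CoA reductase for unsaturated chains, had 64.25, 57.2, 70.2 and 76.35 CPM in kidney and 381, 305, 462 and 371 CPM in liver (log2 fold change 2.50 ± 0.16). Scp2 had 563, 597, 704 and 694.5 CPM in kidney and 3125, 2814, 4081 and 4172 CPM in liver (2.47 ± 0.19). Acaa2 had 246, 239, 295 and 344 CPM in kidney and 1221, 1068, 1566 and 1706 CPM in liver (2.31 ± 0.20). These values are on the TMM scale, and relative to total counts the log2 fold changes were 1.42 for Decr2, 1.38 for Scp2 and 1.21 for Acaa2. Hsd17b4, which performs the hydration and second dehydrogenation of the peroxisomal cycle, had 187, 201, 199.8 and 199.6 CPM in kidney and 508, 517, 700.0 and 518 CPM in liver (1.51 ± 0.14). Acox2, the oxidase of bile acid intermediates, had 73.8, 78.4, 94.7 and 106 CPM in kidney and 239.6, 233, 239.8 and 181 CPM in liver (1.34 ± 0.16), and was called higher under TMM but not under total counts.

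The reverse pattern was rarer. Acadm had 828, 1095, 1747 and 1229 CPM in young kidney and 445, 387, 732 and 527 CPM in young liver (log2 fold change −1.23 ± 0.25, adjusted p = 0.00107 by edgeR). All 4 liver libraries lay below the lowest kidney library, although young kidney replicate 3 stood high. Acox3, the peroxisomal oxidase of branched chains, had 85.8, 79.6, 75.2 and 73.9 CPM in kidney and 39.1, 41.6, 34.6 and 25.7 CPM in liver (−1.16 ± 0.15, adjusted p = 3.207e-05), so that among the 10 peroxisomal genes it alone was called lower in liver. The thioesterases, which release free fatty acids from CoA and lie in a row on chromosome 12, split: Acot3 was called higher (1.95) and Acot2, the mitochondrial member, lower (−1.10), with 1 liver library inside the kidney range. Acot1, the cytosolic member, had 66.3, 72.0, 135 and 113 CPM in young kidney and 30.95, 38.2, 332 and 137 CPM in young liver, where replicates 3 and 4 were above the others and the groups overlapped. Of the 100-base stretches of Acot1 mRNA, 32.6% also occur in related Acot genes, and of Acaa1b mRNA 22.93% occur in Acaa1a, so reads could be split between these copies.

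In old tissue 23 of 36 members were called higher in liver and 5 lower (24.7% and 30.1% of all genes), and in the DMSO groups 30 of 37 higher and 5 lower (33.2% and 38.7%). Under total counts these became 9 and 10 in old tissue (9.15% and 68.1% of all genes) and 14 and 11 in the DMSO groups (11.4% and 76.1%). Acadm, Acox3, Acot2, Acot1 and Crat, carnitine acetyltransferase, were lower in liver in both sets under both scalings. Acot1 had 129.9, 81.7, 137 and 109 CPM in old kidney and 29.5, 22.5, 8.025 and 38.6 CPM in old liver (log2 fold change −2.21), and the groups did not overlap. 

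The strongest calls repeated across the 3 sets of libraries. Decr2 had 67.8, 57.3, 66.0 and 59.3 CPM in old kidney and 326, 282, 219 and 319 CPM in old liver, and 45.3, 51.9, 45.6 and 48.4 CPM in DMSO kidney and 235, 274, 261 and 313 CPM in DMSO liver (log2 fold changes 2.19 and 2.50). Acsl5 had 125, 114, 109.9 and 103 CPM in old kidney and 663.5, 780.2, 512 and 760.4 CPM in old liver, and 101, 98.8, 102 and 98.95 CPM and 629, 653, 722 and 654 CPM in the DMSO set (2.58 and 2.73). Fabp1 had 7.07, 38.3, 9.66 and 11.3 CPM in old kidney and 5943, 2483, 1809 and 3129 CPM in old liver, and 4.14, 3.44, 3.88 and 5.03 CPM and 2889, 2193, 3277 and 3053 CPM in the DMSO set (7.66 and 9.43). The 38.3 CPM are from old kidney replicate 2, the library with 4081 CPM of hepatocyte markers, and without it the log2 fold change was 8.48. Every liver library was above every kidney library in each of these. Hsd17b4 had 160.0, 171, 151.5 and 144 CPM in old kidney and 502, 502, 440.2 and 634 CPM in old liver, and 148, 137.5, 148 and 145 CPM and 442, 363.5, 420.1 and 475 CPM in the DMSO set (1.73 and 1.56). Etfdh, the dehydrogenase that hands electrons to ubiquinone, had 131, 121, 135.5 and 119 CPM in old kidney and 395, 426, 288 and 434.5 CPM in old liver, and 89.5, 76.97, 81.1 and 80.3 CPM and 217, 206, 244 and 276 CPM in the DMSO set (1.60 and 1.52). Slc25a20, the carnitine carrier, had 57.25, 39.1, 65.7 and 50.5 CPM in old kidney and 189, 134, 118 and 170.5 CPM in old liver, and 35.05, 30.85, 32.5 and 35.1 CPM and 125, 88.0, 119.9 and 138 CPM in the DMSO set (1.53 and 1.82). These 3, from peroxisome, respiratory chain entry and carnitine route, were likewise higher in every liver library. In old tissue Crot had 164, 135, 147 and 142 CPM in kidney and 919, 912, 897 and 1177 CPM in liver (2.73), and Acox2 had 77.1 to 83.4 CPM in kidney and up to 292 CPM in liver (1.59). Acox2 in old tissue was called under TMM but not under total counts, where its log2 fold change was 0.54. In the DMSO set Acot3, a peroxisomal thioesterase, had 40.2, 37.05, 35.6 and 33.05 CPM and 187.5, 173, 242 and 162 CPM (2.39), and Acaa2 240.5, 196.5, 214 and 203 CPM and 1087, 864, 1188 and 1129 CPM (2.32).

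By step in young tissue under TMM, 3 of 3 activation and binding genes, 3 of 4 carnitine genes tested, 3 of 3 electron transfer genes, 7 of 7 hydration to thiolysis genes and 8 of 10 peroxisomal genes were called higher in liver, against 2 of 4 dehydrogenases and 2 of 4 thioesterases. The pattern by step was different under total counts, where 1 of 3 electron transfer genes was called higher and 1 lower, 1 of 7 hydration to thiolysis genes higher and 2 lower, 0 of 4 dehydrogenases higher and 2 lower, and 6 of 10 peroxisomal genes higher and 1 lower. Of all genes, 30.2% were called higher and 35.1% lower under TMM, and 11.2% and 74.3% under total counts.

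**Figure D2:**
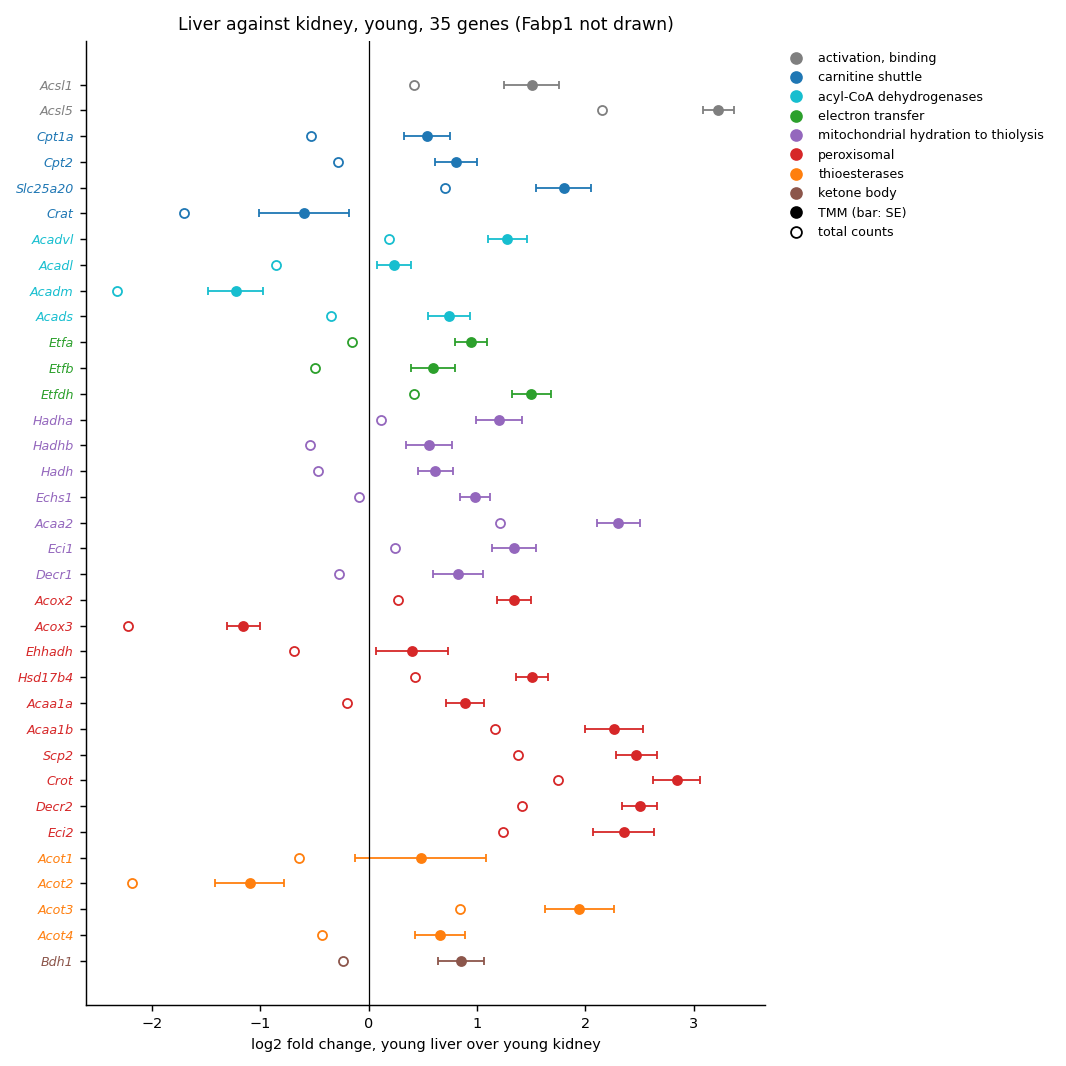
Log2 fold change of young liver over young kidney for 35 members, coloured by step; filled symbols are TMM scaling with ± SE and open symbols the same from total counts, and Fabp1 (10.51) is off the axis and not drawn. The open symbols are shifted to the left throughout, yet the peroxisomal genes Crot, Decr2, Scp2, Eci2 and Acaa1b stay to the right of 0 and Acadm, Acox3 and Acot2 to the left.

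Genes outside the 37 also differed between the organs. Oxct1, the enzyme that lets tissues burn ketone bodies, had 1183, 1307, 1179 and 1252 CPM in kidney and 8.395, 5.83, 8.49 and 7.28 CPM in liver (log2 fold change −7.36 ± 0.20, adjusted p = 5.361e-11 by edgeR), so that every liver library lay far below every kidney library. Bdh1, by contrast, had overlapping levels per length, 93.1 ± 16.6 RPKM in kidney and 79.0 ± 16.6 RPKM in liver, and its direction depended on the scaling. On the lists of related genes, regulators of oxidation gave 5 higher and 4 lower, with Ppara higher (1.31) and Esrra, which activates mitochondrial genes, lower (a mean of 134 CPM in kidney and 33.5 CPM in liver). PPAR alpha targets outside oxidation gave 6 higher and 2 lower of 9, and fatty acid uptake 1 higher and 3 lower of 6, all under TMM (30.2% of all genes higher and 35.1% lower). Under total counts (11.2% and 74.3% of all genes) these lists gave 3 higher and 4 lower, 4 higher and 2 lower, and 1 higher and 5 lower, and Ppara was at 0.23 (adjusted p = 0.2999 by edgeR).

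Aging was examined next, first in kidney. Of the 36 members tested, 4 were lower and 1 was higher in old than in young kidney (3.36% of all genes tested were called lower and 8.15% higher), with a median log2 fold change of −0.11 against 0.02 over all genes. Of the 4 that fell, 3 are peroxisomal (Acox3, Crot and Hsd17b4) and the remaining one is the thioesterase Acot3. Under total counts Acox3, Crot and Acot3 were called and Hsd17b4 was not. None of the 14 mitochondrial spiral genes was called. The mitochondrial sum was 3549 ± 498 RPKM in old kidney (SD, n = 4), within the range of young kidney, and the peroxisomal sum was 1227 ± 24.1 RPKM, where the highest old library (1251 RPKM) lay below the lowest young one (1284 RPKM). As a share of the mitochondrial sum the peroxisomal sum overlapped, at 30.79 to 40.1% in old and 40.0 to 42.95% in young kidney.

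Acox3 (chr5:35582981-35614208, plus strand) had 125, 117, 111 and 109.5 CPM in young and 74.2, 85.55, 78.0 and 85.7 CPM in old kidney (log2 fold change −0.52 ± 0.10 SE, adjusted p = 0.00836 by edgeR). Crot had 252.5, 326, 415 and 314 CPM in young and 231, 202, 204 and 211 CPM in old kidney (−0.62 ± 0.15, adjusted p = 0.0240). Hsd17b4 had 272.5, 295, 296 and 296 CPM in young and 225, 256, 211 and 213 CPM in old kidney (−0.36 ± 0.10, adjusted p = 0.0492). In all 3 the young and old libraries did not overlap, as for 7 members with every old library below (6.91% of all genes) and 2 above (10.9%). Acot3 had 58.85, 70.4, 77.1 and 84.6 CPM in young and 61.2, 45.7, 50.6 and 45.2 CPM in old kidney (−0.52 ± 0.14, adjusted p = 0.0429), with old replicate 1 above the lowest young library. Short of the threshold, every old library also lay below every young one for Cpt1a, the liver-type gate of mitochondrial import, at 473, 435, 458 and 386.5 CPM in young and 278, 369, 222 and 340.2 CPM in old kidney (−0.54, adjusted p = 0.0592). The same held for Ehhadh, the bifunctional peroxisomal enzyme, at 831, 832, 1623 and 954 CPM and 707, 651, 481 and 695 CPM (−0.74, adjusted p = 0.0645), with young replicate 3 well above the rest, and for Etfdh and Acot4. With 1 library left out at a time the log2 fold change of Ehhadh was −0.846 to −0.478.

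Fabp1 rose, from 3.675, 2.97, 5.37 and 7.13 CPM in young to 9.95, 57.2, 13.4 and 16.7 CPM in old kidney (log2 fold change 2.36 ± 0.55, adjusted p = 0.0234 by edgeR). The highest value is old kidney replicate 2, the library with 4081 CPM of hepatocyte markers (all 8 at 1 CPM or more, none at 0), of which Alb, serum albumin, made 2761 CPM. Without it the log2 fold change was 1.496 and the call remained. The 3 other old kidneys, with hepatocyte sums of 99.56 to 140.6 CPM against 85.02 to 113.8 CPM in young kidney, each exceeded every young library for Fabp1.

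The call of each gene but Acox3 depended on the libraries used: without one library at a time the number lower ranged from 1 to 6, being 1 without young replicate 2, young replicate 3 or old replicate 4, 2 without young replicate 4 or old replicate 3, and 6 without old replicate 2 (Cpt1a and Acot4 were added). Fabp1 was not called without young replicate 1, 2 or 3. After removal of a trend in fold change with GC content and exon length, 16 members were lower and 1 higher (17.6% and 8.42% of all genes), and the median was −0.34 against −0.12 over all genes. The 6 proximal tubule markers, all detected in every kidney library, summed to 20230 to 25580 CPM in young and 12900 to 20920 CPM in old kidney, the 8 macrophage markers to 132 to 155 and 626 to 1446 CPM, and the 5 B and plasma cell markers found in the files to 5.55 to 10.8 and 371 to 549 CPM; their part in these results was not tested.

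Among related genes in kidney, Ppara fell with age, from 182, 146, 151 and 125 CPM to 70.8, 115, 76.45 and 89.05 CPM (log2 fold change −0.78 ± 0.17, adjusted p = 0.01765 by edgeR), with no overlap. It was the 1 regulator of 9 called. Abcd3, which carries fatty acyl groups into peroxisomes, fell too (−0.55, adjusted p = 0.00948). Of the PPAR alpha targets tested outside oxidation, Pdk4, which restrains glucose oxidation, fell (−1.25, adjusted p = 0.0271) and Ucp2 rose (0.70, adjusted p = 0.0212), out of 7. None of the 5 uptake genes tested was called.

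In liver 0 of 36 members were called higher and 0 lower by edgeR with age (1.91% and 0.558% of all genes were), and 6 had an unadjusted p under 0.05. DESeq2 called 4 lower (Crot, Ehhadh, Acot1 and Acsl1) and 0 higher, against 1.91% and 4.94% of all genes. The median log2 fold change was −0.40 against 0.00 over all genes, with 32 of 36 members below 0, and −0.17 without young liver replicate 3 (28 below 0) or −0.24 without old liver replicate 3. Every old library lay below every young one for 4 members (3.9% of all genes) and above for 0 (6.05%). Crot had 966, 898, 1500 and 1105 CPM in young and 617, 610.2, 611 and 780.2 CPM in old liver (−0.77 ± 0.22, adjusted p = 0.107), with no overlap. Ehhadh had 550.2, 419, 1194 and 498 CPM in young and 207.5, 359, 137 and 350.1 CPM in old liver (−1.34 ± 0.39, adjusted p = 0.111), again without overlap and with young replicate 3 the highest by far. Without young replicate 3 the log2 fold change was −0.60 for Crot and −0.90 for Ehhadh, and without old replicate 3 it was −0.74 and −1.12. Acsl1, the main long-chain acyl-CoA synthetase of liver, had 704, 952, 1533 and 678.5 CPM in young and 284, 624.7, 334 and 668 CPM in old liver (−1.02 ± 0.35, adjusted p = 0.181), where the highest old and lowest young library nearly touch, and the log2 fold change was −0.71 without young replicate 3. Young replicate 3 was again the highest for Acot1, at 21.6, 27.0, 232 and 96.4 CPM in young and 19.8, 15.05, 5.47 and 25.6 CPM in old liver (−2.52 ± 0.72, adjusted p = 0.103), for which the groups overlapped, and without it the log2 fold change was −1.55.

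The peroxisomal sums of the livers overlapped, at 1346 to 2486 RPKM in old and 2260 to 3221 RPKM in young. As a share of the mitochondrial sum the old livers lay below the young range, 60.84 to 84.13% against 87.61 to 100.7%. Fabp1 made 45.1 ± 7.99% of the members' RPKM in old liver, close to its young share. Cd36, a fatty acid uptake receptor, was the 1 gene called on the 5 related lists in liver, and it rose (1.32 ± 0.20, adjusted p = 0.00852), while Ppara was at −0.51 (adjusted p = 0.399). The old livers held more macrophage marker RNA (690 to 1322 CPM against 372 to 531 CPM), more B and plasma cell marker RNA (18.45 to 78.44 CPM against 3.72 to 4.46 CPM) and less hepatocyte marker RNA (95640 to 149700 CPM against 153700 to 193400 CPM), and the part of these in the members' values was not tested.

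**Figure D3:**
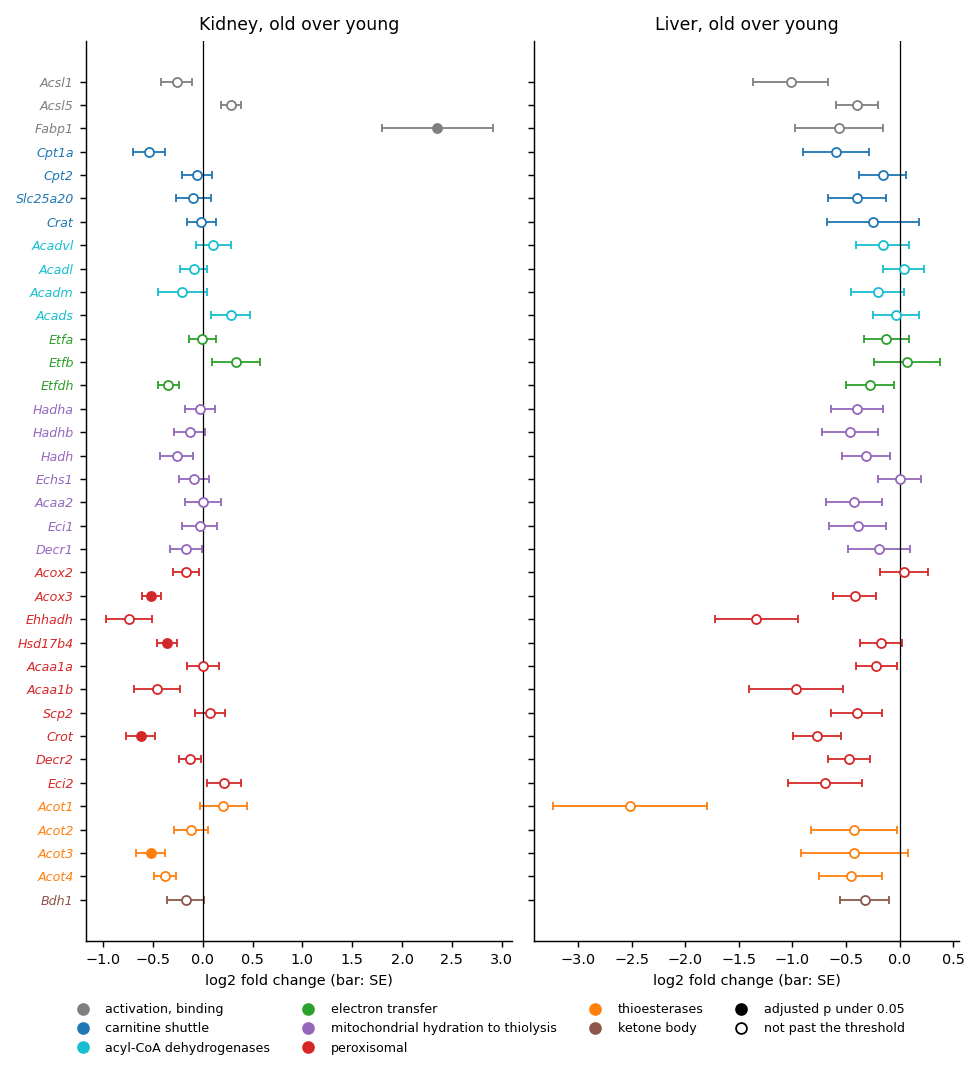
Log2 fold change of old over young for 36 members in kidney and in liver, with ± SE; filled symbols have an adjusted p under 0.05 by edgeR. In kidney 4 filled symbols lie below 0 and Fabp1 (2.36) above it, and in liver no symbol is filled although 32 of 36 lie below 0.

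Whether aging acted differently in the organs was tested as an interaction. No member passed in either direction (0.871% of all genes were higher and 0.845% lower in the liver effect minus the kidney effect), 3 had an unadjusted p under 0.05, and DESeq2 called the same 3, Fabp1, Acot1 and Acsl5, as lower and 0 higher (2.69% and 2.23% of all genes). By edgeR the difference was −2.85 ± 0.75 SE for Fabp1, and −3.28 to −2.07 with 1 library left out at a time. For Acot1 it was −2.69 ± 0.84, and −3.02 to −1.705 in the same way. Fabp1 in old kidney replicate 2 and Acot1 in young liver replicate 3 were the highest of their groups. Acsl5 had its groups in opposite order in the organs: 125, 144, 129.5 and 137 CPM in young and 176, 171, 153 and 153 CPM in old kidney, all above, and 679.7, 556, 607 and 553 CPM in young and 445, 522, 349 and 504 CPM in old liver, all below. The difference between the effects was −0.64 ± 0.24 SE (adjusted p = 0.204 by edgeR). For Crot, every old library lay below every young one in both organs, though edgeR called it in kidney only. Its difference between the effects was −0.11 ± 0.30 (adjusted p = 0.922). On the related lists Cd36 was called higher (1.14, adjusted p = 0.03376) and Creb3l3, a liver transcription factor of the fasting response, lower (adjusted p = 0.01816), the latter at up to 0.143 CPM in young kidney and at 0.152, 6.09, 1.75 and 1.555 CPM in old kidney, where its fold depends on counts near 0. The highest value is from old kidney replicate 2, the library with the hepatocyte marker RNA.

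Chromatin at the members' promoters was read from the deposited peaks. A peak within 1 kb of a start site was present for 32 to 37 of the 37 members in each ATAC library (86.5 to 100%), against 57.3 to 63.7% of all genes. Peaks were called per library and carry no read counts, so enrichment is given as the fold of the highest peak, and 3 against 3 libraries allow no exact p below 0.1. In old kidney 7 members had every library above every young one (9.52% of all genes did) and 2 every library below (6.22%). In old liver 6 were above (4.97%) and 1 below (4.01%), Acot3, whose peak was present in 3 of 3 young and 0 of 3 old livers (0.358% of all genes were lost in this way). The loss of Acot3 depended on the peak settings: no member was lost with only peaks of −log10 q of at least 5 or with equal numbers of top peaks, and within 250 bases the lost member was Acaa1b. Crot, Acadm and Etfdh were above in both organs. Liver against kidney over both ages gave 0 members with every library above (0.511%) and 8 below (18.3%). All these shares are over 24866 genes, and a gene with no peak in any library can be neither above nor below. A peak was present in every kidney library for 34 of 37 members and 55.8% of all genes, and in every liver library for 32 and 49.7%. The shares among genes with peaks are therefore larger than those given.

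Crot had a promoter enrichment of 8.31, 7.92 and 8.92 in young kidney and 12.22, 10.63 and 12.16 in old kidney. Its enrichment was 4.07, 4.02 and 3.88 in young liver and 6.51, 5.37 and 8.28 in old liver. Old lay above young in both organs, while its mRNA was lower in old kidney, and at each age its kidney peaks were higher than its liver peaks although its mRNA was higher in liver. Kidney peaks were higher in general, with a median enrichment over all genes with a peak of 5.80 to 7.34 in the kidney libraries and 4.47 to 5.28 in the liver libraries. Acadm had 10.66, 10.34 and 8.94 in young and 10.76, 10.78 and 11.66 in old kidney, a narrow separation, and 5.73, 5.92 and 4.98 in young and 7.36, 6.23 and 10.50 in old liver. Its mRNA was not called with age in either organ. Etfa and Etfb, the subunits of the electron transfer flavoprotein, were above in kidney only, Etfa at 7.06, 6.57 and 6.56 in young and 8.40, 9.01 and 10.44 in old. Their liver libraries overlapped.

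At each age a Fabp1 promoter peak was called in more kidney than liver libraries, while its mRNA was higher in liver. The peak folds of the organs overlapped. Its peak had a fold of 2.40, 4.58 and 2.37 in young kidney and was called in 1 of 3 old kidneys (3.74), in 1 of 3 young livers (1.99) and in 0 of 3 old livers. Its mRNA averaged 6185 RPKM in young liver and 9.14 RPKM in young kidney (4292 and 49.5 RPKM in old tissue, or 26.1 RPKM in old kidney without replicate 2), so most liver libraries had no called peak within 1 kb of the start of a gene with high mRNA there. Hadha and Hadhb shared one and the same peak over the stretch printed above in 12 of 12 libraries, so their promoter values are not independent. Cpt1b had a peak in 5 of 6 kidney and 0 of 6 liver libraries.

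**Figure D4:**
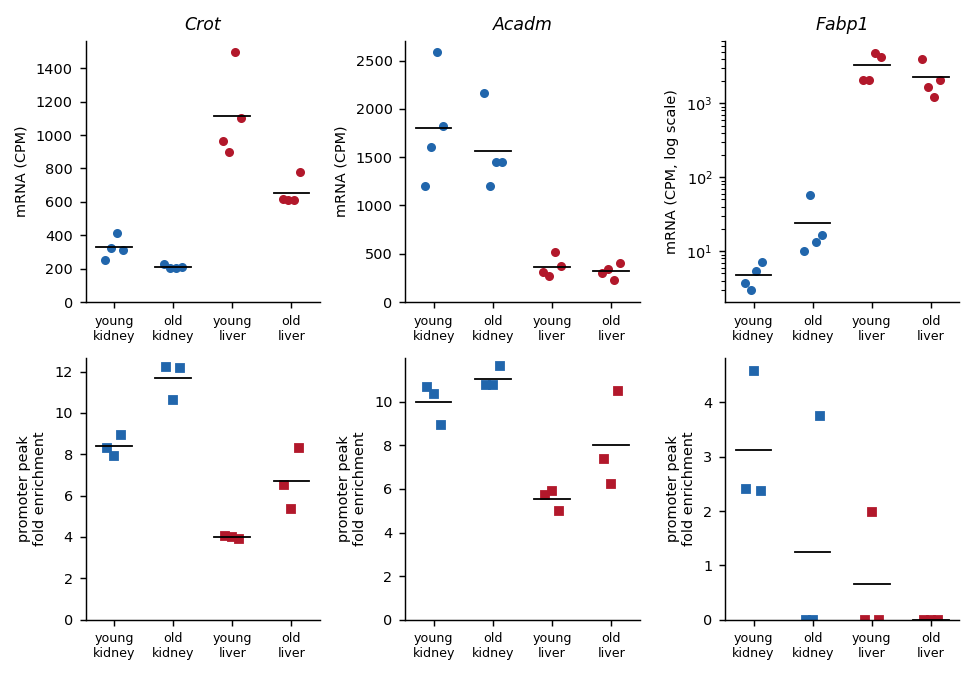
Level of mRNA in CPM (top, 4 libraries a group) and fold enrichment of the highest promoter peak (bottom, 3 libraries a group, 0 where no peak was called) for Crot, Acadm and Fabp1 in young and old kidney and liver; lines are group means. Crot peaks rise from 7.92 to 8.92 in young to 10.63 to 12.22 in old kidney while its mRNA goes down, and Fabp1 is highest in liver mRNA with no peak in most liver libraries.

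In skin fibroblasts, 3C against DMSO left 0 of 33 members tested called in either direction by edgeR (2.43% of all genes were higher and 1.78% lower), with 7 at an unadjusted p under 0.05 and a median of 0.02. DESeq2 called 3, Acaa1b higher and Bdh1 and Acot4 lower, and so did edgeR without a filter on low counts (DESeq2 called 4.29% of all genes higher and 3.67% lower). Acaa1b, a peroxisomal thiolase, had 5.47, 5.57 and 6.12 CPM with DMSO and 10.6, 9.07 and 8.10 CPM with 3C (log2 fold change 0.70 ± 0.17, adjusted p = 0.0521), and passed without 3C replicate 3. Bdh1 had 21.0, 17.9 and 20.75 CPM and 14.3, 11.2 and 14.3 CPM (−0.59 ± 0.15, adjusted p = 0.0564). Acot4 had 1.37, 1.09 and 2.21 CPM and 0.674, 0.456 and 0.324 CPM (−1.64 ± 0.44, adjusted p = 0.0657), a low level. In none of the 3 did the groups overlap, and over the module every 3C library was above for 5 members (13% of all genes) and below for 4 (12.5%). Hadh, the mitochondrial 3-hydroxyacyl-CoA dehydrogenase, was separate too, at 61.9, 66.2 and 67.1 CPM and 81.0, 83.2 and 83.5 CPM (0.34 ± 0.10, adjusted p = 0.08945).

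The peroxisomal sum of the fibroblasts was 248.9 to 253.3 RPKM with DMSO and 283.1 to 293.3 RPKM with 3C, with no overlap, while the mitochondrial sum overlapped (686 ± 22.9 and 700 ± 42.8 RPKM, SD, n = 3). All 9 peroxisomal genes tested had a log2 fold change of 0 or above, with a median of 0.16, against 51.1% of all genes above 0. Of the related lists, PPAR alpha targets gave 2 of 7 lower, Angptl4, an inhibitor of lipoprotein lipase (−0.93, adjusted p = 0.009045 by edgeR), and Plin2, a lipid droplet coat protein (−0.55, adjusted p = 0.0361), and the other 4 lists gave none. All 8 macrophage markers were detected in these cells, summing to 545 to 644 CPM with DMSO and 464 to 517 CPM with 3C. The 15 clock genes summed to 277.9 to 312.9 CPM with DMSO and 337.5 to 422.1 CPM with 3C, and the 6 striated muscle markers to 25.31 to 33.93 and 12.28 to 22.4 CPM, also without overlap, and their part in the result was not tested.

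In kidney of mice aged 20 to 21 months no gene of any kind was called by edgeR for 3C against DMSO (0% higher and 0% lower of 14974 tested, 1786 with an unadjusted p under 0.05), while DESeq2 called 66 genes higher (0.441%) and 148 lower (0.988%). Without 3C replicate 2, edgeR called 4 genes higher and 25 lower, with 0 members among them, and without 3C replicate 1 it called 1 lower. Of the 37 members, 13 had an unadjusted p under 0.05, and DESeq2 called 1, Eci1, higher. The members leaned one way: 35 of 37 log2 fold changes were above 0, with a median of 0.19, against 51.4% of all genes above 0 and a median of 0.00. Without 3C replicate 1 they were 34 of 37, with a median of 0.12. The members moved together within libraries, so the 37 are not separate results. DMSO replicate 2, part of the reference here, was below all 7 other libraries for 23 of them. Eci1, an isomerase for unsaturated chains, had 96.6, 91.5, 96.7 and 96.65 CPM with DMSO and 116, 114, 109.6 and 108 CPM with 3C (log2 fold change 0.23 ± 0.05, adjusted p = 0.175 by edgeR). Decr1, the mitochondrial dienoyl-CoA reductase, had 172, 146, 158 and 164 CPM and 217, 185, 176 and 185 CPM (0.25 ± 0.07, adjusted p = 0.256). In both, and in Acadvl, Etfa, Etfdh, Hadhb, Hadh and Acot4, every 3C library lay above every DMSO library (8 members, when 3.1% of all genes did), and in 0 members below (3.84%). The 7 fibroblast markers, all detected in every kidney library, summed to 559.8 to 712.1 CPM with DMSO and 284.4 to 487.4 CPM with 3C, and the 8 macrophage markers, also all detected, to 549.8 to 627.3 and 326.7 to 535.9 CPM, with no overlap in either. The distal nephron and podocyte markers summed to 8133 to 8766 and 7537 to 8155 CPM and the proximal tubule markers to 12760 to 16700 and 11770 to 16560 CPM. The part of these cell types in the members' levels was not tested.

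Kidney 3C replicate 1 was above all 7 other kidney libraries for 33 of the 37 members, when it was so for 20.7% of all genes, and below all of them for 1, Acsl5 (19.6% of all genes). Its median level over the members was 0.31 above the median of the other 7 on the log2 scale. Of the 5 carnitine genes, Crat was at 233 CPM in that library and at most 201 CPM in the others, Cpt1b was at 1.306 and at most 1.301 CPM, and the distance was wider for the other 3. Slc25a20 had 48.4, 43.1, 45.8 and 49.0 CPM with DMSO and 91.55, 47.9, 52.9 and 49.9 CPM with 3C, where the first value is replicate 1 and the lowest of the other 3 lies within the DMSO range. Cpt1a had 273, 291, 261 and 247 CPM and 451, 275, 315.5 and 357 CPM (0.38 ± 0.13, adjusted p = 0.292 by edgeR), and Cpt2 had 145, 114, 124 and 144 CPM and 216, 132, 146 and 149 CPM. In each the highest library was replicate 1, and without it the log2 fold change was 0.11 for Slc25a20 (0.38 with it), 0.24 for Cpt1a and 0.11 for Cpt2 (0.28 with it). The summed levels show the same, 3065 RPKM mitochondrial and 1355 RPKM peroxisomal in replicate 1 against at most 2735 and 1138 RPKM in the other 7. In that library Dbp, a clock output gene, was at 138 CPM (2.40 to 19.4 CPM in the others) and Per3 at 86.6 CPM (11.95 to 25.8 CPM), and the part of clock phase in the members' levels was not tested. DMSO replicate 2 was below all others for 23 members.

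In liver edgeR called no gene either (0% higher and 0% lower of 13042, 436 with an unadjusted p under 0.05) and DESeq2 called 4 higher and 2 lower, with 0 members among them. Of the 36 members, 2 had an unadjusted p under 0.05. Again most members leaned upward, 33 of 36 above 0 with a median of 0.17, against 49.7% of all genes. Cpt1a was the 1 member whose groups did not overlap (1.1% of all genes were above in this way and 1.11% below), at 153, 185.5, 160.4 and 173 CPM with DMSO and 329, 201, 205 and 212 CPM with 3C (log2 fold change 0.49 ± 0.17, adjusted p = 0.9996 by edgeR). Replicate 1 was again the highest, and without it the log2 fold change was 0.29. Liver 3C replicate 1, with Dbp at 134 CPM (0.19 to 3.25 CPM in the others), was above all 7 others for 5 members (Cpt1a, Acaa1a, Decr2, Eci2 and Bdh1, when 17% of all genes were) and below for 6 (15.6%), with a median of −0.08. In liver 3C replicate 3 was above all others for 22 members, and DMSO replicate 2 below all others for 18. Without 3C replicate 3 the median was 0.07 and 27 of 36 were above 0.

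**Figure D5:**
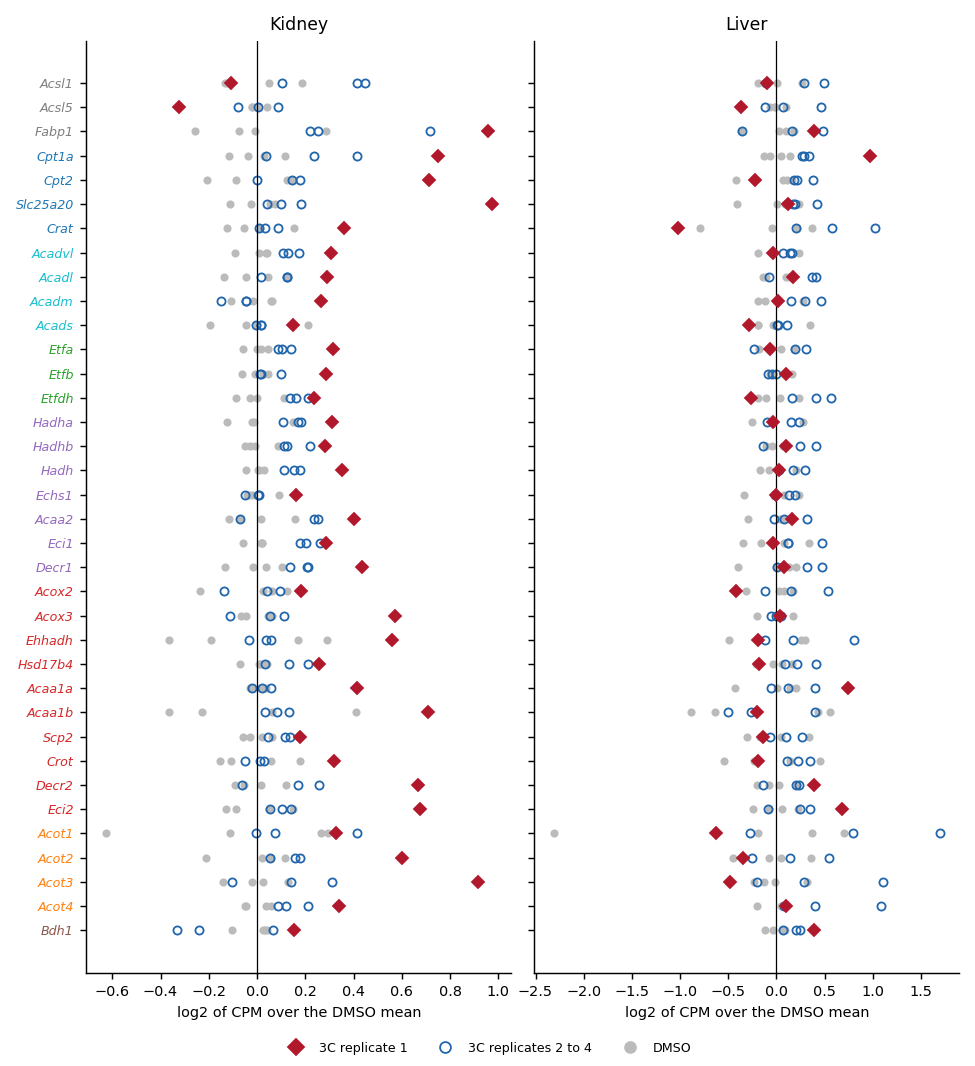
Level of each member in every kidney (left) and liver (right) library of the treated set as log2 CPM over the DMSO mean, for 36 members; red diamonds are 3C replicate 1, open blue circles 3C replicates 2 to 4 and grey points DMSO. In kidney the red diamonds lie above all other libraries for most genes, while in liver they are scattered, with Cpt1a the clearest exception.

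In liver Ppara had 139, 137, 119.9 and 136 CPM with DMSO and 244, 173, 209.6 and 224 CPM with 3C (log2 fold change 0.68 ± 0.13, adjusted p = 0.9996 by edgeR). The groups did not overlap, and replicate 1 was once more the highest, with a log2 fold change of 0.60 without it. In kidney Ppara was at 0.53 (adjusted p = 0.202), and at 0.39 without replicate 1. No gene of the 5 related lists was called in either organ. The 3C effect in liver minus that in kidney gave 0% higher and 0% lower of all 15526 genes tested by edgeR, 0 by DESeq2, 0 members with an unadjusted p under 0.05 (554 genes in all), and a median of −0.04 over the members. These 3C comparisons rest on 4 libraries a group, and the adjusted values do not show that the levels were alike.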

How the data were processed

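The deposited RNA files hold counts of reads per gene in each library, made by the authors, per the labels and methods, with Trimmomatic 0.39, HISAT2 2.2.1 on mm10 and HTSeq 0.12.4 without strand. The deposited ATAC files are MACS2 narrow peaks called per library after Bowtie2 2.3.5.1, with a fold enrichment (a ratio) and a −log10 p and q for each peak, and DiffBind 2.12.0 is also named. Rows that name no gene stayed out of library sizes (reads outside genes were 5.85 to 19.11% and ambiguous reads 1.72 to 2.81% of reads). The DMSO and 3C files hold 0 in the tallies of unaligned and non-unique reads and the others do not, so the sets were not tested against each other. Of 24984 genes, 24866 matched RefSeq GRCm38.p6, whose exon unions gave lengths. Because mm10 and GRCm38 share coordinates, peaks were set against RefSeq starts.

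Each comparison was fitted on its own groups with edgeR 4.0.16 in R 4.3.3: filterByExpr with a minimum count of 10, TMM factors, quasi-likelihood F test, Benjamini-Hochberg adjustment over all genes tested, 2 sides, call at 0.05. Interactions used 4 groups. CPM are TMM-scaled within a comparison, and a gene's CPM therefore differ between comparisons. RPKM are scaled on total counts. Counting without strand cannot part a gene from an overlapping one, and 94.82% of Cpt1b exon overlaps a neighbouring model. On simulated data with 200 genes changed 4-fold, 194 to 198 were recovered in the 8 comparisons, with 4 to 18 false calls. The simulation gave all genes of a comparison the same spread, so it does not measure recovery of smaller changes or false calls in the real libraries. No pair of replicates agreed within sampling noise (chi-square per degree of freedom at least 8.122). In no comparison did every library deviate most like the library of the same replicate number, so the numbers were not shown to pair libraries. In young liver against young kidney the correlations of deviations were 0.12, 0.219, 0.104 and 0.452, but replicate 1 reached 0.241 with another number. The block there gave 31 members higher and 4 lower, when all genes called went from 4246 higher and 4941 lower to 4636 and 5367. The alternatives were DESeq2 1.42.0, RLE factors, other filters, a fold rule, the block, a length and GC trend, each library left out, TPM, and other peak limits. Total counts in place of TMM were added after the data were seen. The members and lists were chosen with earlier results of these data known. The genes given with every value are members called without overlap, at most 8 per comparison, and members decided by 1 library or by paralogs, and those described near the threshold or for contrast (Acadm, Cpt1a, Eci1, Decr1, Ehhadh, Acsl1) and genes of the lists were chosen after their values were seen. Sequences are RefSeq, and 5 members had no promoter window. Python 3.11.15, pandas 2.3.3, numpy 2.4.6, pyfaidx 0.9.0.4 and matplotlib 3.10.9 were used. Some genes of the related lists are not reported here.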

Additional observations from a re-analysis of the deposited data

Results flagged for a closer look

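In groups of 4 libraries, a value is listed here when its gap to the nearest library exceeded 0.829 of the group's range, which chance gives in about 1 of 20 groups; 124 groups were looked at. Kidney 3C replicate 1 was the highest of its group for the electron transfer flavoprotein sum (891.8 RPKM), the peroxisomal sum (1355 RPKM), the mitochondrial sum (3065 RPKM) and Slc25a20 (91.55 CPM), and liver 3C replicate 1 for Cpt1a (329.4 CPM). Kidney DMSO replicate 2 was the lowest for Bdh1 (64.15 RPKM, group maximum 70.3 RPKM) and for Eci1 (91.52 CPM).

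Young replicate 3 was the highest for Ehhadh in kidney (1623 CPM) and in liver (1194 CPM). Old liver replicate 3 had the lowest mitochondrial sum (1823 RPKM, group maximum 2955 RPKM), old liver replicate 4 the highest Crot (780.2 CPM), old kidney replicate 2 the highest Fabp1 (57.18 CPM) and young kidney replicate 1 the lowest Hsd17b4 (272.5 CPM, group maximum 295.9 CPM). For Acsl5 all old libraries exceeded all young ones in kidney and lay under them in liver, with an effect in liver minus kidney of −0.64 on the log2 scale (adjusted p = 0.204 by edgeR's interaction test).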

How the results depend on the processing

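In old against young kidney, 1 member higher and 4 lower became 2 and 8 with DESeq2, 0 and 1 with the replicate number as a block (Acox3 lower, the numbers not shown to pair libraries), and 1 and 16 with the length and GC trend removed, and 0 were lower with the fold rule of 2. Leaving out libraries gave 0 to 1 higher and 1 to 6 lower. In liver the lower count went from 0 to 4 with DESeq2 and 2 with the trend removed (Crot and Acox3), and libraries left out gave 0. In fibroblasts DESeq2 and no filter each gave 1 higher and 2 lower, and leaving out libraries 0 to 1 higher. In kidney 3C DESeq2 gave 1 higher. Libraries left out gave 0 in both 3C organ comparisons. The age interaction gave 3 lower with DESeq2 and 0 to 1 lower with libraries left out (Fabp1, without old kidney replicate 1 or old liver replicate 1).

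Liver against kidney gave, with total counts, 12 higher and 8 lower in young, 9 and 10 in old, and 14 and 11 in DMSO tissue, and with the fold rule 17 higher in young and 3 lower in DMSO tissue. Leaving out libraries gave 25 to 29 higher and 3 to 4 lower in young, 20 to 25 and 5 in old, and 29 to 30 and 4 to 5 in DMSO tissue. Total counts turned Acadl to −0.86, Hadh to −0.47, Hadhb to −0.54 and Etfb to −0.50 on the log2 scale. The block moved no other count of members by over 1.5 times.

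TPM moved liver to kidney ratios in DMSO tissue from 0.588 to 0.539 (dehydrogenases), from 0.901 to 0.826 (electron transfer flavoprotein) and from 0.897 to 0.823 (Bdh1). With only peaks of −log10 q of at least 5, kidney had 1 member below with age, liver 0 below and 0 lost, and liver against kidney 1 lost (Bdh1). Within 250 bases, kidney lost 1 (Fabp1) and liver 1 (Acaa1b, not Acot3), with 2 below in liver. With equal numbers of top peaks, liver had 0 below and 0 lost. The stricter DR1 gave 0 members. Where not stated, the cause was not tested. Over all genes, calls with age in kidney (1182 higher and 487 lower) became 1220 and 219 with total counts and 1219 and 2550 with the trend removed, those in liver (239 and 70) 392 and 270 with the trend removed, and those in fibroblasts (327 and 240) 370 and 164 with total counts. With libraries left out one at a time, the calls over all genes ranged from 695 to 1670 higher and 138 to 1770 lower in kidney (the highest without old replicate 2) and from 48 to 453 higher and 29 to 135 lower in liver with age (the lowest without young replicate 3 and the highest without old replicate 1), and in fibroblasts from 97 to 349 higher and 58 to 239 lower (the lowest without DMSO replicate 3), and DESeq2 gave 1611 and 1385 in kidney, so the shares of all genes called move with them. Of the other values, 768 kept direction and side of the threshold, 29 passed it and 34 missed it only under the alternative.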
